A study of Mus musculus with 27 samples.

Results

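The genes described here govern the passage of a cell through G1. They are the D-type cyclins Ccnd1, Ccnd2 and Ccnd3, the CDK inhibitors Cdkn1b, Cdkn1c, Cdkn2a, Cdkn2b and Cdkn2c, and the transcription factor Myc, with the inhibitor Cdkn1a as the last of 10 listed genes. Each gene was read from the probe set that carries its symbol alone, and from the brighter one for Cdkn1b, which has 2. This gave values for 9 of the 10 listed genes, out of 19938 genes that have such a probe set. The only probe set of Cdkn1a, which encodes p21, is shared with 4930567H12Rik, so no value is given for Cdkn1a.

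The RNA came from 27 mouse cultures in 9 groups of 3, read on Affymetrix arrays of the Mouse Gene ST type, version 1.0. Mouse embryonic fibroblasts (MEFs), made from embryos after removal of the heart and used at passage 3 to 5, received either HNGMT, a set of 5 cardiac factors made up of Hand2 and Nkx2-5 with Gata4, Mef2c and Tbx5, or none of them (0TF). In each case they were treated with 2 ng/mL TGFβ1, with 0.5 µM SB431542 (SB) or with the DMSO vehicle. Cardiac fibroblasts (CFs) of adult mice of 8 to 12 weeks, at passage 3, all received HNGMT and were treated with 2 ng/mL TGFβ1, 5 µM SB or DMSO. SB blocks the kinase of the type I TGFβ receptor, and its dose differed between MEFs and CFs. The protocol, given alike for all samples, adds lentiviruses for the doxycycline-dependent activator rtTA and for a Troponin T-GCaMP reporter. The molecules were added at Day -1, 2 µg/mL doxycycline switched the delivered factors on at Day 0, and RNA was taken at Day 3. One label of the 0TF cultures names an empty vector, another names no factor treatment, and the protocol mentions MEFs that were not transduced. Whether the 0TF cultures carried any virus is thus not settled, and HNGMT over 0TF may also hold an effect of the virus, which cannot be told apart from that of the factors. The labels call the cultures independent biological replicates, but how many embryos or hearts lay behind them is not stated, so p-values measure the spread between cultures. The factors were delivered in doxycycline-driven (tetO) constructs. No CF group without the factors was analysed here.

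D-type cyclins bind and activate the kinases CDK4 and CDK6, which phosphorylate the retinoblastoma protein and release the E2F factors that drive the genes of DNA replication and mitosis. The INK4 inhibitors, among them those encoded by Cdkn2a, Cdkn2b and Cdkn2c, block CDK4 and CDK6. The CIP/KIP inhibitors, encoded by Cdkn1a, Cdkn1b and Cdkn1c, bind a wider range of cyclin-CDK complexes. Myc drives growth and entry into the cycle, and TGFβ is known from epithelial cells to halt the cycle in G1 through induction of Cdkn2b and repression of Myc. The comparisons below ask which of these genes moved together with the genes of cell division when TGFβ1 was added.

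The values are log2 intensities as deposited. Array medians lay between 7.83 and 7.91 in MEFs and between 7.36 and 7.43 in CFs, so levels were not tested between the cell types. A gene was called when its Benjamini-Hochberg adjusted p over all genes was under 0.05 in limma and its log2 fold change was at least 0.58 in size in MEFs, which is 1.5-fold (also for differences between CFs and MEFs), or 0.32 in CFs, the limits that the study used in its pathway analyses, and "rose" and "fell" are used only of called genes. In bulk cultures, a lower share of dividing cells and less RNA per cell cannot be told apart. Hand2 stood at 11.57 to 11.77 in all MEF cultures with HNGMT, above the 8.77 to 9.30 of all 0TF cultures. The other 4 delivered factors did not mark the HNGMT cultures in this way, since Nkx2-5, for example, was at 8.74 to 9.32 with HNGMT and at 8.79 to 9.25 with 0TF. The qPCR assays that the methods list for these 4 are human ones, and whether the mouse probe sets read the delivered sequences was not tested. Vascular markers were high in the CF cultures. The mean of 9 endothelial markers was 9.39 to 11.05 there and 6.91 to 7.36 in MEFs, and Pecam1, which encodes the endothelial adhesion molecule CD31, reached 11.86. Col1a1, the main fibrillar collagen gene of fibroblasts, was at 11.84 to 12.62 in the same CF cultures. Vim, which encodes the mesenchymal filament vimentin, was at 13.75 to 13.82 in CFs, so both kinds of marker were present. Replicate 3 of CF HNGMT+SB stood apart from its group. Its Pecam1 value was 9.52 against 11.72 and 11.76 in replicates 1 and 2, and its median correlation with them was 0.982 where all other arrays had 0.991 to 0.999 with their own group. Results in CFs are given with and without it where it bears on them.

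The promoters of Cdkn2b and Cdkn2c are shown because these INK4 genes had log2 fold changes of opposite sign with TGFβ1 in all 3 settings below. The sequences are from RefSeq (GRCm38.p6), 250 bases before a transcript start, on the strand of the gene. Capitals mark 2 motifs searched on both strands. CAGAC is a Smad-binding motif, read as GTCTG on the other strand, and occurs in 42.2% of 32851 promoter windows of the same length. GGGCGG is the Sp1 motif and occurs in 32.7% of them. The E2F motif TTTNGCGC was also searched and occurs in 1.13%. The Cdkn2b window, chr4:89311033-89311282 on the minus strand, holds 1 CAGAC, whose first base lies 129 bases before the start.
Cdkn2b: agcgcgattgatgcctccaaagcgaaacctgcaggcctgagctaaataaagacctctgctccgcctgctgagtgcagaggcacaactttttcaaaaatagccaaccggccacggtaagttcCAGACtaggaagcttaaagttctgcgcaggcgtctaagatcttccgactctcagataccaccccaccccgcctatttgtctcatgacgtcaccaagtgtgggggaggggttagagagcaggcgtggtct
Of the 2 Cdkn2c windows, both also on the minus strand, chr4:109665373-109665622 holds 1 CAGAC, on the other strand, and chr4:109666757-109667006 holds 3 copies of GGGCGG.
Cdkn2c first window: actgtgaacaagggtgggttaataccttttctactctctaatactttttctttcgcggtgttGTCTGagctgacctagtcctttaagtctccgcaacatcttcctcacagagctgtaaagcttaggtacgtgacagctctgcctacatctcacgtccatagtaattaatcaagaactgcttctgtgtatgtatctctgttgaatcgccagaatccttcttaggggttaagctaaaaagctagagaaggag
Cdkn2c second window: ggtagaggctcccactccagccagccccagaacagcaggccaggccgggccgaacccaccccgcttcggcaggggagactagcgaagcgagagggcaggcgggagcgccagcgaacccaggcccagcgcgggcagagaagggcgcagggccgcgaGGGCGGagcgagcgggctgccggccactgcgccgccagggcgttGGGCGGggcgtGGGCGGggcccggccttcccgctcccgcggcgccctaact
The first Cdkn2c window and the Cdkn2b window each hold 1 Smad-binding motif, while their log2 fold changes had opposite signs. A match in such a window is a description and not a binding site. Among the 10 windows of 6 listed genes that could be searched, the E2F motif was found once, in 1 of the 2 windows of Cdkn2a, the neighbour of Cdkn2b on chromosome 4.

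In MEFs without the factors, TGFβ1 moved the CDK inhibitors in both directions. Cdkn2b and Cdkn2a rose, while Cdkn1c, Cdkn2c and Cdkn1b fell, and none of the D-type cyclins nor Myc passed both thresholds. Thus 5 of 9 genes were called, 2 higher and 3 lower, where 10.4% of all genes were called, 4.21% higher and 6.19% lower. All 9 passed the adjusted p alone, where 46.9% of all genes did. The genes of division were low in the same cultures. Of 34 measured mitosis genes, 31 fell and none rose, with a median log2 fold change of -0.96 against 0.05 over all genes. Of 29 replication genes, 10 fell and none rose, with a median of -0.47. Kif23, a motor of cytokinesis, fell by 1.33 on the log2 scale, Mki67, which encodes the proliferation marker Ki-67, fell by 1.37, and Mcm6, a subunit of the replicative helicase, fell by 1.04.

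Cdkn2b encodes p15, which blocks CDK4 and CDK6. It was at 11.40, 11.47 and 11.39 in the 0TF cultures with TGFβ1, against 10.35, 10.35 and 10.40 with DMSO. All TGFβ1 cultures lay above all DMSO cultures. The log2 fold change was 1.06, or 2.08-fold (standard error, SE, 0.05, adjusted p = 1.69e-12). Cdkn2a, next to Cdkn2b in the genome, encodes the CDK inhibitor p16 and, from another reading frame, the p53 activator p19Arf, and which transcript its probe set reads is not given in the sources used here. Its values were 10.46, 10.49 and 10.56 with TGFβ1, against 9.63, 9.59 and 9.48 with DMSO. The groups did not overlap, and the log2 fold change was 0.94, or 1.91-fold (SE 0.05, adjusted p = 4.53e-11).

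Cdkn2c encodes p18, the INK4 protein best known for its rise during S phase in cycling cells. It was at 8.98, 9.11 and 9.22 in the 0TF cultures with TGFβ1, against 10.68, 10.62 and 10.67 with DMSO. All TGFβ1 cultures were the lower ones, with a log2 fold change of -1.55, or 2.93-fold (SE 0.06, adjusted p = 5.18e-13). Its fall was thus larger than the median of the mitosis genes. Cdkn1c encodes p57, the imprinted inhibitor expressed in many embryonic tissues. Its values were 9.48, 9.42 and 9.30 with TGFβ1, against 12.08, 12.08 and 11.99 with DMSO. This was the largest change among the 9 genes in all comparisons with DMSO, with a log2 fold change of -2.65, or 6.29-fold (SE 0.04, adjusted p = 3.34e-18), and the groups lay far apart. Cdkn1b encodes p27, an inhibitor of CDK2 that is controlled largely through protein stability. It was at 10.86, 10.85 and 10.92 with TGFβ1, against 11.59, 11.51 and 11.68 with DMSO, again without overlap. The log2 fold change was -0.72, or 1.64-fold (SE 0.05, adjusted p = 2.9e-09).

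**Figure D1:**
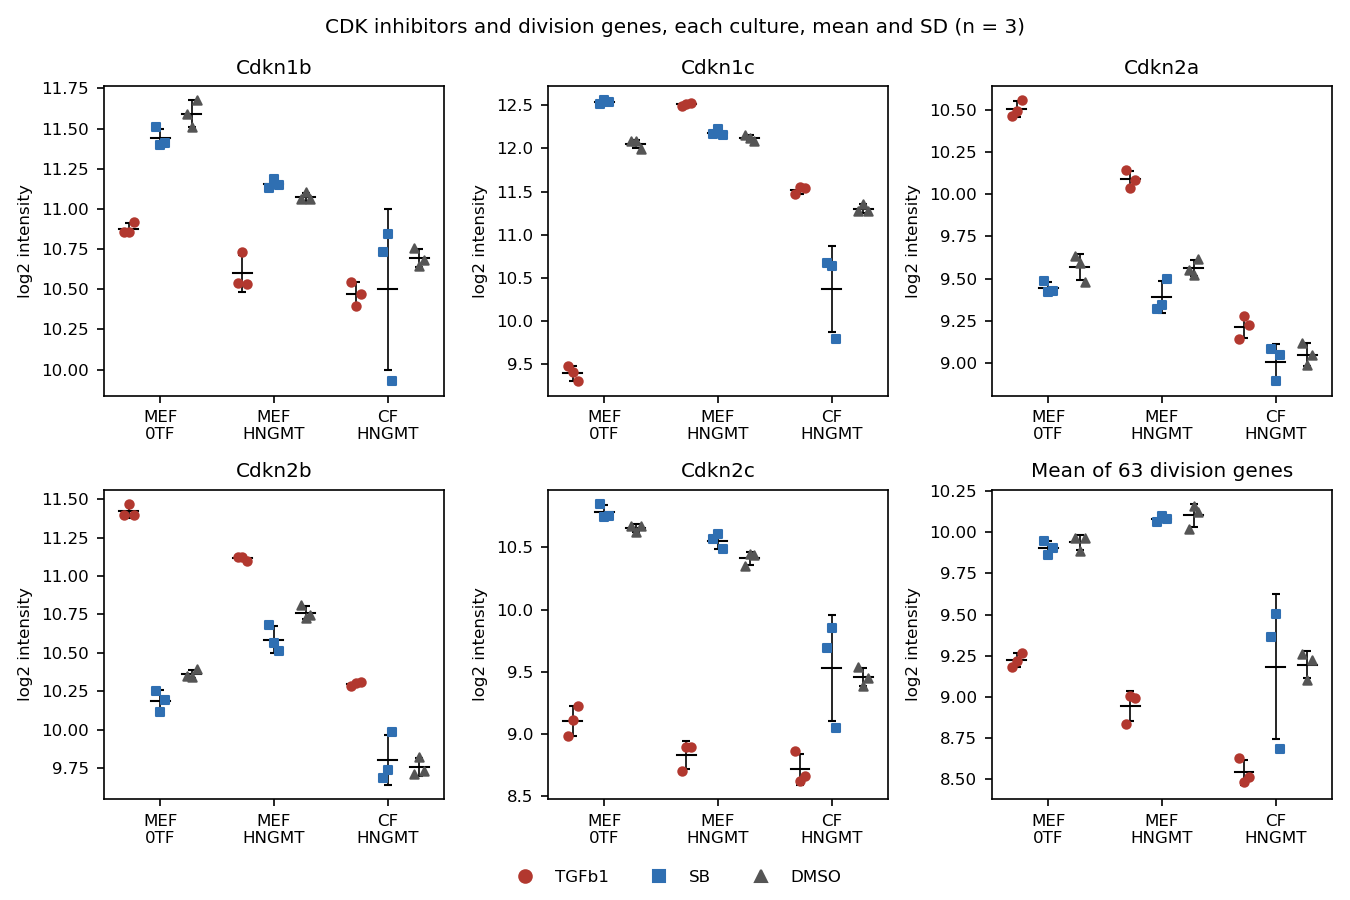
Log2 intensity of 5 CDK inhibitors and the mean of 63 division genes in each culture (points), with the group mean and SD (lines, n = 3), for TGFβ1, SB and DMSO in MEF 0TF, MEF HNGMT and CF HNGMT. Cdkn1c was at 9.30 to 9.48 with TGFβ1 only in MEF 0TF, whereas Cdkn2c and the division genes were lower with TGFβ1 than with DMSO in all 3 settings.

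Markers of other states moved in the same 0TF cultures. Of 6 smooth muscle and myofibroblast genes, 5 rose with TGFβ1, among them Cnn1, which encodes calponin, by 2.99 on the log2 scale, and the mean of the 6 was 10.38 to 10.56 with TGFβ1 against 9.28 to 9.40 with DMSO. Of 10 fibroblast genes, 3 fell and none rose, with a mean of 12.58 to 12.70 with TGFβ1 against 13.09 to 13.15 with DMSO. Of 6 adipocyte genes, 2 fell and none rose, with a mean of 7.87 to 7.96 with TGFβ1 against 8.67 to 8.68 with DMSO. The part of these markers in the inhibitor values was not tested.

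In MEFs with HNGMT, TGFβ1 lowered the division genes at least as widely, but of the 9 genes only Cdkn2c passed both thresholds. This was 1 of 9, where 5.77% of all genes were called, and 6 of 9 passed the adjusted p alone, where 35.8% of all genes did. All 34 mitosis genes fell, with a median log2 fold change of -1.52 against 0.02 over all genes, and 20 of 29 replication genes fell, with a median of -0.84. Kif11, the spindle motor Eg5, fell by 1.91 on the log2 scale, and Prim1, the catalytic subunit of primase, fell by 1.73. Cdkn2c was at 8.70, 8.89 and 8.90 with TGFβ1, against 10.35, 10.44 and 10.44 with DMSO. The groups did not overlap, and the log2 fold change of -1.58, or 3.00-fold (SE 0.06, adjusted p = 1.54e-12), was close to the -1.55 of the 0TF cultures. The difference between these effects was -0.03 (95% interval -0.21 to 0.15).

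The other inhibitors had smaller differences in MEFs with HNGMT, below 1.5-fold although past the adjusted p. Cdkn2b was at 11.12, 11.13 and 11.10 with TGFβ1, against 10.81, 10.73 and 10.75 with DMSO. Its cultures did not overlap, and its log2 fold change was 0.36 (SE 0.05, adjusted p = 5.65e-06). Cdkn2a had 10.14, 10.04 and 10.09 with TGFβ1, against 9.55, 9.52 and 9.62 with DMSO. Its groups were also apart, at a log2 fold change of 0.52 (SE 0.05, adjusted p = 2.13e-07). Cdkn1c had 12.49, 12.51 and 12.53 with TGFβ1, against 12.16, 12.12 and 12.08 with DMSO. Here the TGFβ1 cultures were the higher ones, with a log2 fold change of 0.39 (SE 0.04, adjusted p = 7.02e-07). Cdkn1b had 10.54, 10.73 and 10.53 with TGFβ1, against 11.06, 11.10 and 11.06 with DMSO. It was lower in all TGFβ1 cultures, by a log2 fold change of -0.48 (SE 0.05, adjusted p = 1.11e-06). Among 6 smooth muscle genes, 2 rose and 1 fell with TGFβ1 in these cultures, with a mean of 11.28 to 11.34 against 11.01 to 11.10 with DMSO. Among 10 fibroblast genes, 4 fell, with a mean of 11.99 to 12.07 with TGFβ1 against 12.62 to 12.63 with DMSO. Their part in the inhibitor values was not tested.

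In CFs with HNGMT, TGFβ1 raised Cdkn2b and lowered Cdkn2c. These were 2 of 9 genes, where 5.32% of all genes were called, 3.11% higher and 2.2% lower. Cdkn2b was at 10.29, 10.31 and 10.31 with TGFβ1, against 9.71, 9.83 and 9.74 with DMSO. The groups did not overlap, with a log2 fold change of 0.54, or 1.46-fold (SE 0.08, adjusted p = 0.00447). This was past the CF limit of 0.32 but under the MEF limit of 0.58. The Cdkn2b value of 0.36 in MEF HNGMT, not called there, was also past the CF limit. Cdkn2c was at 8.86, 8.62 and 8.66 with TGFβ1, against 9.54, 9.39 and 9.45 with DMSO. All TGFβ1 cultures were lower, with a log2 fold change of -0.74, or 1.67-fold (SE 0.18, adjusted p = 0.0486).

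The Cdkn2c call in CFs lay at the edge of the threshold. Leaving out any 1 of the 6 TGFβ1 and DMSO cultures kept the log2 fold change between -0.82 and -0.70 and gave an adjusted p of 0.0918 to 0.164, and with the replicate number as a block it was 0.0568. Without replicate 3 of CF HNGMT+SB, which enters the fit only through the shared spread, the adjusted p was 0.000238 for Cdkn2c and 4.27e-05 for Cdkn2b. The share of all genes called was then 10.8%. The same array decided the count of division genes. With it, 5 of 34 mitosis genes and 6 of 29 replication genes fell in CFs, at medians of -0.83 and -0.44. Without it, 34 and 22 fell at the same medians. With 1 TGFβ1 or DMSO culture left out in place of it, 1 to 2 mitosis genes and 1 to 4 replication genes did.

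Of the other inhibitors in CFs, none was called with all arrays. Cdkn2a had 9.15, 9.28 and 9.23 with TGFβ1, against 9.12, 8.99 and 9.05 with DMSO, with no overlap and a log2 fold change of 0.16 (SE 0.06, adjusted p = 0.178). Cdkn1c had 11.47, 11.55 and 11.54 with TGFβ1, against 11.27, 11.36 and 11.27 with DMSO, and a log2 fold change of 0.22 (SE 0.21, adjusted p = 0.665, or SE 0.04 and adjusted p = 0.00611 without SB replicate 3). Cdkn1b had 10.54, 10.40 and 10.47 with TGFβ1, against 10.76, 10.64 and 10.68 with DMSO, and a log2 fold change of -0.22 (SE 0.21, adjusted p = 0.656, or SE 0.05 and adjusted p = 0.0192 without it). Neither reached the fold limit. These small differences had the same sign as in MEFs with HNGMT. The endothelial markers were also lower, with a mean of 10.29 to 10.31 with TGFβ1 against 10.82 to 10.88 with DMSO, although only Kdr, the VEGF receptor, passed the test among 9, with a log2 fold change of -1.22. Without SB replicate 3, 5 of the 9 fell. Of 6 smooth muscle genes 1 rose, with a mean of 11.59 to 11.62 with TGFβ1 against 11.13 to 11.15 with DMSO. The call of Kdr was lost when any 1 TGFβ1 or DMSO culture was left out, and the part of these markers in the CF values was not tested.

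The fall of Cdkn2c with TGFβ1 was smaller in CFs than in MEFs with HNGMT. The difference in log2 effect was 0.84 (SE 0.18, adjusted p = 0.00171), and without SB replicate 3 it was also 0.84 (adjusted p = 5.67e-07). Cdkn2c was the only called gene of 9 in this comparison, where 4.38% of all genes were called. The division genes also differed. The effect was less negative in CFs in 14 of 34 mitosis genes and 5 of 29 replication genes that were called, with none the other way. Cdkn2b had a difference in effect of 0.19 (95% interval 0.02 to 0.36, adjusted p = 0.145, or 0.0267 without SB replicate 3). Cdkn2a had one of -0.36 (adjusted p = 0.00281). Both are under 1.5-fold. Without SB replicate 3, Cdkn1b (adjusted p = 0.0176), Cdkn1c (0.0282) and Ccnd1 (0.0337) also passed the adjusted p in limma, but none reached 1.5-fold.

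**Figure D2:**
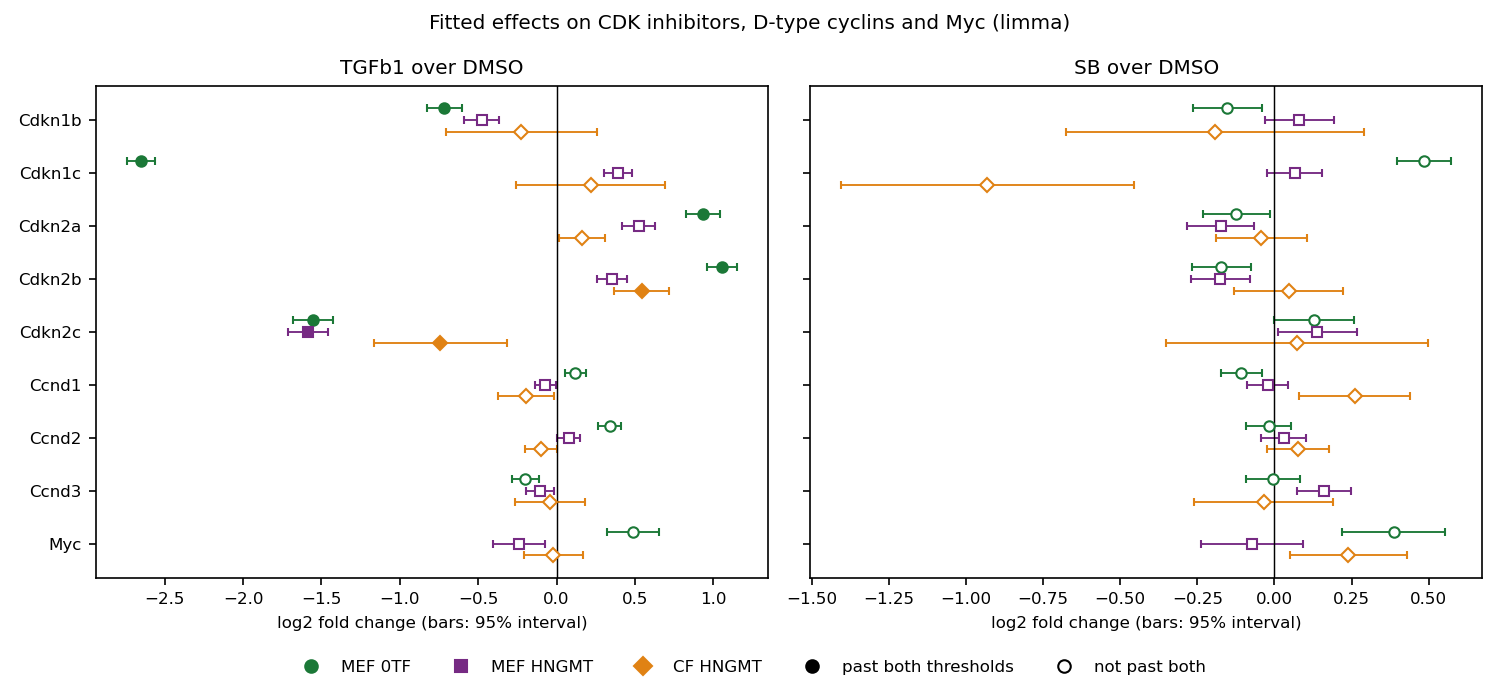
Log2 fold changes of TGFβ1 over DMSO (left) and SB over DMSO (right) with 95% intervals for 9 genes in MEF 0TF, MEF HNGMT and CF HNGMT, filled where past both thresholds. Cdkn2c lies at -1.55, -1.58 and -0.74 in the 3 settings with TGFβ1, while Cdkn1c lies at -2.65 in MEF 0TF and at 0.39 and 0.22 in the other 2, and no point is filled for SB.

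The D-type cyclins had only small differences with TGFβ1 while the division genes were low. All 3 were bright, at the 96.1 to 99.7 percentile of gene means, and none passed the fold threshold in any of the 3 settings. Ccnd1, the cyclin most responsive to growth factors, was at 12.89, 12.94 and 12.99 in MEF 0TF with TGFβ1, against 12.82, 12.83 and 12.81 with DMSO. The TGFβ1 cultures were the higher ones, by 0.12 (SE 0.03, adjusted p = 0.00415). With HNGMT the difference was -0.07 in MEFs (adjusted p = 0.0889) and -0.19 in CFs (adjusted p = 0.193, or 0.00361 without SB replicate 3). Ccnd2, the brightest of the 9 genes, was at 13.64, 13.64 and 13.58 in MEF 0TF with TGFβ1, against 13.26, 13.29 and 13.29 with DMSO. This was the largest cyclin difference with TGFβ1, at 0.34, or 1.27-fold (SE 0.03, adjusted p = 1.92e-07), again with no overlap. It was 0.08 in MEFs with HNGMT (adjusted p = 0.0966) and -0.10 in CFs (adjusted p = 0.229). Ccnd3 had 12.04, 12.03 and 12.07 in MEF 0TF with TGFβ1, against 12.19, 12.24 and 12.29 with DMSO. It was lower in all TGFβ1 cultures, by -0.20 (SE 0.04, adjusted p = 0.000602), and differed by -0.11 in MEFs with HNGMT (adjusted p = 0.0569) and -0.04 in CFs (adjusted p = 0.898). For scale, the brightest probe set of an array stood at 14.52 to 14.64 in MEFs and 14.24 to 14.34 in CFs.

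Myc did not go down with TGFβ1 in MEFs without the factors. It was at 10.99, 11.06 and 10.93 with TGFβ1, against 10.50, 10.51 and 10.51 with DMSO, and all TGFβ1 cultures were the higher ones. The log2 fold change of 0.49, or 1.40-fold (SE 0.08, adjusted p = 4.86e-05), was below the fold threshold. In MEFs with HNGMT, Myc had 10.15, 10.34 and 10.20 with TGFβ1, against 10.48, 10.48 and 10.44 with DMSO. There it was lower in all TGFβ1 cultures, with a log2 fold change of -0.24 (SE 0.08, adjusted p = 0.0239). In CFs it had 9.90, 9.80 and 9.73 with TGFβ1, against 9.81, 9.84 and 9.84 with DMSO. These overlapped, with a log2 fold change of -0.02 (95% interval -0.21 to 0.17, adjusted p = 0.946).

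**Figure D3:**
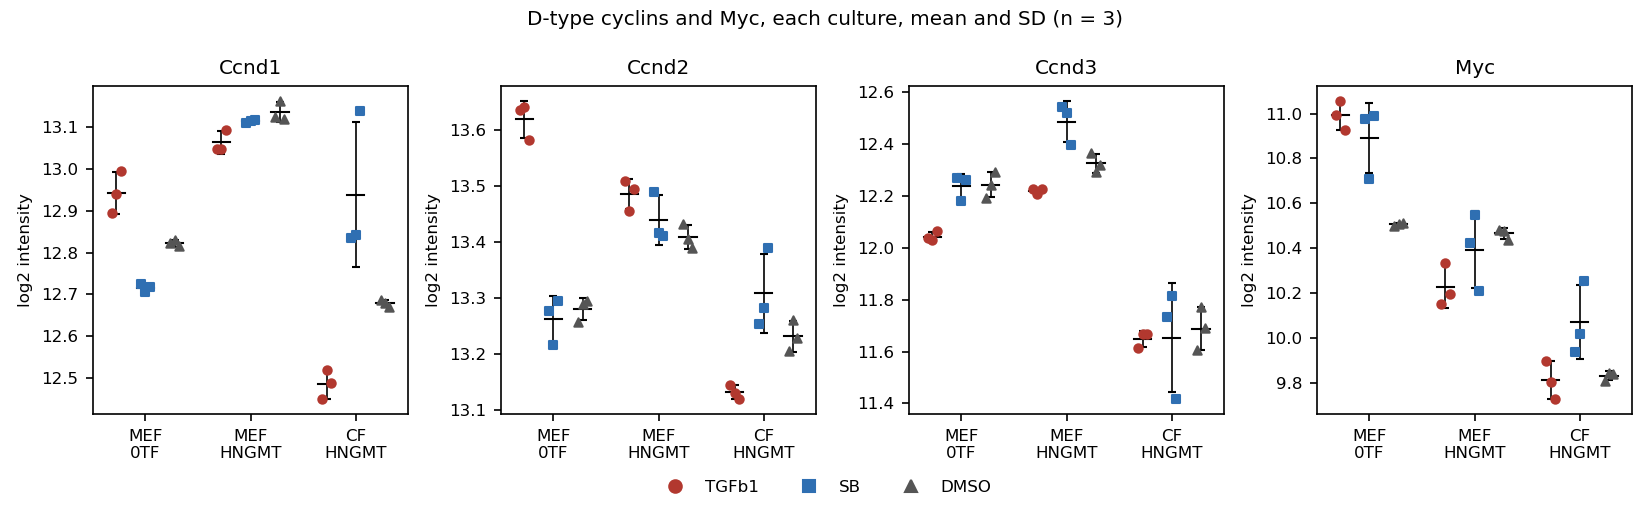
Log2 intensity of Ccnd1, Ccnd2, Ccnd3 and Myc in each culture (points), with the group mean and SD (lines, n = 3), for TGFβ1, SB and DMSO in MEF 0TF, MEF HNGMT and CF HNGMT. Each panel has its own axis, and Myc lies at 10.93 to 11.06 with TGFβ1 and 10.50 to 10.51 with DMSO in MEF 0TF, and the 2 overlap in CF HNGMT.

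With SB and all arrays, none of the 9 genes and none of the 63 division genes was called in any setting, although 4 of 9 TGFβ target genes fell in MEF 0TF, among them Ccn2 by 1.84, 3 in MEF HNGMT and 1 in CFs. The shares of all genes called were 2.4% in MEF 0TF, 0.823% in MEF HNGMT and 0.241% in CFs. At the adjusted p alone, 4, 3 and 0 of the 9 passed in limma, where 16.6%, 7.38% and 0.266% of all genes did. At a p under 0.05 without adjustment, 6, 4 and 3 of the 9 passed, where 25.4%, 17.4% and 6.22% of all genes did. Of the division genes, 14 passed it in MEF 0TF, 7 in MEF HNGMT and 1 in CFs. Without SB replicate 3, 3 mitosis genes and 2 replication genes rose with SB in CFs, at medians of 0.30 and 0.21. SB and TGFβ1 were compared with the same DMSO cultures, so their effects are given side by side only. Cdkn2b had a log2 fold change of -0.17 with SB in MEF 0TF (adjusted p = 0.0117) and of -0.18 in MEF HNGMT (adjusted p = 0.0228), beside 1.06 and 0.36 with TGFβ1. Cdkn2c had 0.13 and 0.14 with SB, neither past the adjusted p, beside -1.55 and -1.58 with TGFβ1. In CFs, SB gave 0.05 for Cdkn2b (adjusted p = 0.979) and 0.07 for Cdkn2c (adjusted p = 0.988), beside 0.54 and -0.74 with TGFβ1. Without SB replicate 3 these SB values were -0.05 (adjusted p = 0.856) and 0.31 (adjusted p = 0.122).

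Cdkn1c had the largest SB difference of the 9 genes in MEF 0TF and in CFs, but not in MEF HNGMT, where it was 0.07 (adjusted p = 0.517). In MEF 0TF it was at 12.51, 12.56 and 12.54 with SB, against 12.08, 12.08 and 11.99 with DMSO. All SB cultures were the higher ones, with a log2 fold change of 0.49, or 1.40-fold (SE 0.04, adjusted p = 1.13e-07). In CFs it was at 10.68, 10.64 and 9.80 with SB, against 11.27, 11.36 and 11.27 with DMSO. Here all SB cultures were the lower ones, and replicate 3 was the lowest. The log2 fold change was -0.93 (SE 0.21, adjusted p = 0.201). Without replicate 3 it was -0.64 (SE 0.05, adjusted p = 4e-04), which passes both thresholds, and the share of all genes called was 1.89%. Replicate 3 also had the lowest Cdkn1b of its group, 9.93 against 10.73 and 10.85, and the highest Ccnd1, 13.14 against 12.83 and 12.84. Its mean of endothelial markers was 9.39 against 11.04 and 11.05, that of division genes 8.68 against 9.36 and 9.50, and that of fibroblast markers 11.32 against 10.69 and 10.66.

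Myc with SB was at 10.98, 10.71 and 10.99 in MEF 0TF, against 10.50, 10.51 and 10.51 with DMSO. It was higher in all SB cultures, with a log2 fold change of 0.39 (SE 0.08, adjusted p = 0.00172), beside 0.49 with TGFβ1. Both values rest on the same 3 DMSO cultures. The adipocyte markers also moved with SB there. All 6 rose, with a mean of 11.12 to 11.21 with SB against 8.67 to 8.68 with DMSO, and their part in the Myc and Cdkn1c values was not tested. In MEF HNGMT, Myc had a log2 fold change of -0.07 with SB (adjusted p = 0.79), and in CFs of 0.24 (adjusted p = 0.582).

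Between HNGMT and 0TF under DMSO, none of the 9 genes was called in limma, where 9.08% of all genes were called, and 5 of 9 passed the adjusted p alone, where 40.5% of all genes did. The same number had a p under 0.05 without adjustment, where 45.4% of all genes did. Cdkn1b was lower with HNGMT, at 11.06, 11.10 and 11.06 against 11.59, 11.51 and 11.68 with 0TF. The groups were apart, with a log2 fold change of -0.52 (SE 0.05, adjusted p = 2.56e-07), just under 1.5-fold. Cdkn2b was higher with HNGMT, at 10.81, 10.73 and 10.75 against 10.35, 10.35 and 10.40 with 0TF, a log2 fold change of 0.40 (SE 0.05, adjusted p = 9.72e-07). Ccnd1 had 13.13, 13.16 and 13.12 with HNGMT against 12.82, 12.83 and 12.81 with 0TF. This difference of 0.31 (SE 0.03, adjusted p = 2.2e-07) was the largest of a cyclin between these groups. With SB, 0 of 9 were called too, where 9.85% of all genes were, and 8 passed the adjusted p alone in limma, where 41.8% did. As many had a p under 0.05 without adjustment, where 46.9% did. Ccnd1 then had a difference of 0.40 and Cdkn1b one of -0.28.

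Under TGFβ1, Cdkn1c and Myc were called between HNGMT and 0TF. These were 2 of 9, where 10.3% of all genes were called. All 9 passed the adjusted p alone in limma, for which the share of all genes is not given here. Cdkn1c was at 12.49, 12.51 and 12.53 with HNGMT and TGFβ1, against 9.48, 9.42 and 9.30 with 0TF and TGFβ1. The groups were far apart, with a log2 fold change of 3.11, or 8.65-fold (SE 0.04, adjusted p = 7.44e-19). Myc was at 10.15, 10.34 and 10.20 with HNGMT, against 10.99, 11.06 and 10.93 with 0TF, and fell by 0.76 on the log2 scale, or 1.70-fold (SE 0.08, adjusted p = 2.5e-07). With SB the HNGMT cultures had a Myc difference of -0.50 (adjusted p = 4.15e-05), and with DMSO one of -0.04 (adjusted p = 0.766). Mycn, a relative of Myc that is active in embryonic heart and brain, was higher with HNGMT under each treatment, by a log2 fold change of 1.39 with TGFβ1, 1.55 with SB and 1.32 with DMSO, all called.

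The TGFβ1 effect itself was tested between HNGMT and 0TF MEFs. It differed in 3 of 9 genes, where 7.45% of all genes were called. For Cdkn1c the effect with HNGMT exceeded that with 0TF by 3.05 (SE 0.06, adjusted p = 8.39e-16). For Cdkn2b it was smaller with HNGMT, by -0.70 (SE 0.06, adjusted p = 1.47e-07), the HNGMT cultures being higher than 0TF with DMSO and lower with TGFβ1. For Myc the difference was -0.72 (SE 0.11, adjusted p = 6.31e-05), with effects of opposite sign. Cdkn2a had a difference of -0.41 (adjusted p = 0.000229), under 1.5-fold. The TGFβ1 effect on mitosis genes was more negative with HNGMT in 13 of 34 that were called and in none less so. For SB, 0 of 9 genes had a called difference in effect between HNGMT and 0TF MEFs in limma, where 1.96% of all genes did, and 4 had a p under 0.05 without adjustment, where 18.1% did. Cdkn1c, with a difference of -0.42 (adjusted p = 0.000107), and Myc, with -0.46 (adjusted p = 0.0132), passed the adjusted p alone, which 8.43% of all genes did.

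**Figure D4:**
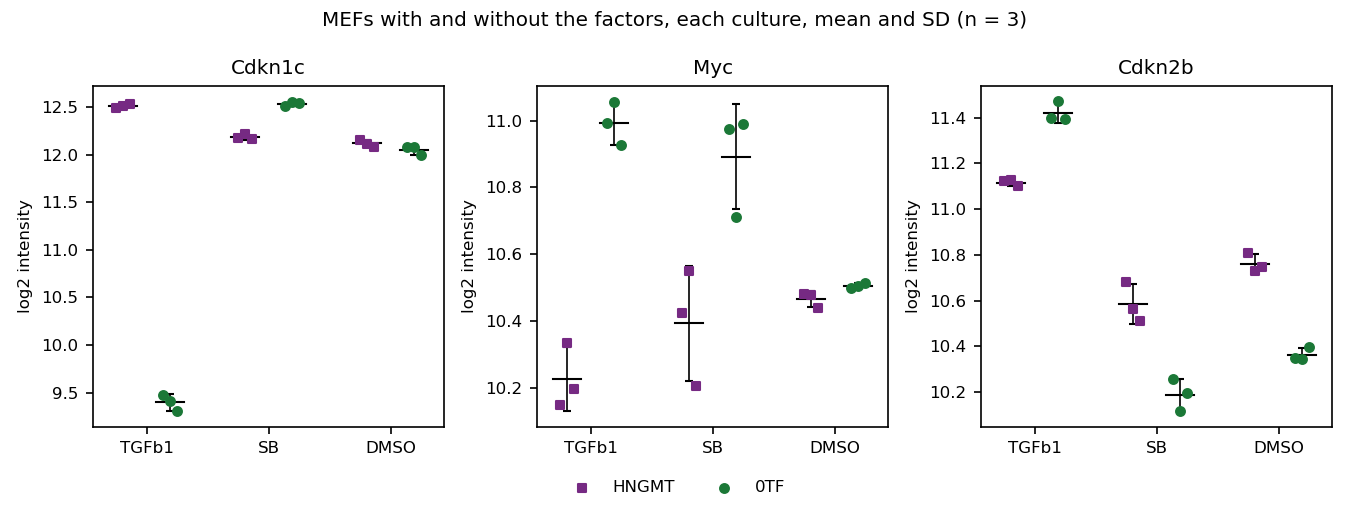
Log2 intensity of Cdkn1c, Myc and Cdkn2b in MEFs with HNGMT (squares) and 0TF (circles) under TGFβ1, SB and DMSO, with each culture, the group mean and the SD (n = 3). Each panel has its own axis, and with TGFβ1, Cdkn1c lies at 12.49 to 12.53 with HNGMT against 9.30 to 9.48 with 0TF, and with DMSO the values are 12.08 to 12.16 with HNGMT and 11.99 to 12.08 with 0TF.

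G1 kinases, late cyclins and genes of the RB-E2F pathway, with regulators such as Cdkn2d and Skp2, were counted in a list of 28. In MEF 0TF with TGFβ1, 1 rose and 4 fell. Cdk6, a partner of the D-type cyclins, rose by a log2 fold change of 0.78, while Cdkn3, a phosphatase of CDKs, fell by 1.17, Rbl1, the RB relative p107, fell by 1.11, and E2f8, a repressor of the family, fell by 1.07. In MEF HNGMT, none rose and 7 fell, among them Cdkn3 by 1.61 and Skp2, which targets p27 for degradation, by 0.80. In CFs, 0 of 28 were called in limma, 9 had a p under 0.05 without adjustment, all lower, and 7 fell without SB replicate 3. At the adjusted p alone 21 of the 28 passed in MEF 0TF, 20 in MEF HNGMT and 0 in CFs. Of all genes 46.9% passed it in MEF 0TF and 35.8% in MEF HNGMT. The shares called were 10.4% in MEF 0TF, 5.77% in MEF HNGMT and 5.32% in CFs, and 10.8% in CFs without SB replicate 3. The share of all genes at a p without adjustment was not counted for TGFβ1.

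Genes that Myc is known to drive were counted in a list of 20 for ribosome production and growth. With TGFβ1 in MEF 0TF, where Myc was higher by 0.49, 2 of them rose and none fell, Tfrc, the transferrin receptor, by 1.43 and Odc1, the first enzyme of polyamine synthesis, by 0.61. Over all genes 10.4% were called. At the adjusted p alone 14 of the 20 were higher and none was lower, where 46.9% of all genes passed in either direction. The Odc1 call was lost without DMSO replicate 1 (0.56) or without TGFβ1 replicate 1 (0.57). In MEF HNGMT none was called, and 1 was higher and 8 were lower at the adjusted p alone, where 35.8% of all genes passed in either direction. The difference in TGFβ1 effect was called in 2, both lower with HNGMT, Tfrc by -1.26 and Ddx21, a nucleolar helicase, by -0.60. Ddx21 fell short of the fold limit when 1 of 3 cultures was left out (-0.57 to -0.56). In CFs none of the 20 was called in limma, where 5.32% of all genes were, and 3 had a p under 0.05 without adjustment. The list did not follow Myc in all other comparisons. With SB in MEF 0TF, where Myc was higher by 0.39, 3 were higher and none lower at the adjusted p alone. Of all genes 16.6% passed there. Between HNGMT and 0TF under DMSO, where Myc differed by -0.04 (adjusted p = 0.766 in limma), 12 were higher and 1 was lower. There 40.5% of all genes passed. Under SB, where Myc differed by -0.50, 6 were higher and 2 lower, where 41.8% of all genes passed. Under TGFβ1, where Myc fell by 0.76, 12 were lower and 2 higher. Their median log2 fold change was -0.17 against -0.04 over all genes. For the difference in SB effect, -0.46 for Myc, 5 were lower and none higher, where 8.43% of all genes passed. Of 12 partners and antagonists of Myc, none was called with TGFβ1 in either kind of MEF, and in CFs Mycn fell by 0.52. At a p under 0.05 without adjustment, 8 passed in MEF 0TF and 7 in MEF HNGMT. At the adjusted p alone 7 passed in each, where 46.9% of all genes did in MEF 0TF and 35.8% in MEF HNGMT.

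The p53 gene itself was not analysed here, and 17 genes of its pathway were counted beside Cdkn2a. Over all genes, TGFβ1 gave called shares of 10.4% in MEF 0TF, 5.77% in MEF HNGMT and 5.32% in CFs. In MEF 0TF with TGFβ1, 9 of the 17 rose and 1 fell. Pmaip1, the death-promoting Noxa, rose by 2.18, Eda2r, a receptor of the TNF receptor family, rose by 1.33, and Btg2, an antiproliferative factor, rose by 1.27, while Sesn1, a stress-induced sestrin, fell by 1.21. In MEF HNGMT, 2 rose, Pmaip1 by 0.95 and Perp, a desmosomal membrane protein, by 0.67. In CFs, Perp rose by 0.68 and Pmaip1 by 0.38, while Trp53inp1, a p53-induced regulator of autophagy and death, fell by 0.45 and Eda2r by 0.35. The CF calls of Perp and Pmaip1 were lost when any 1 TGFβ1 or DMSO culture was left out, and that of Eda2r for 4 of the 6. The TGFβ1 effect differed between HNGMT and 0TF in 7 of the 17, where 7.45% of all genes were called. Of these 7 effects, 6 were lower and 1, that on Sesn1, was higher in HNGMT. Of 9 measured targets of TGFβ signalling, 3 rose and 3 fell in MEF 0TF, none rose and 3 fell in MEF HNGMT, and 5 rose in CFs. In MEF 0TF, Ccn2, a matricellular growth factor, rose by 1.05, while Tgfbi, a matrix protein named for its induction by TGFβ, fell by 1.48, Id2 by 2.24 and Id1 by 1.04. In CFs Tgfbi rose by 1.29. In MEF HNGMT the 3 were Id1, Id2 and Id3, inhibitors of basic helix-loop-helix factors, which fell by 1.08, 1.43 and 1.02.

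Set beside the mean level of the 63 division genes, the inhibitors fell into different patterns over the cultures. The division level was 9.18 to 9.26 with TGFβ1, 9.86 to 9.95 with SB and 9.89 to 9.96 with DMSO in MEF 0TF. It was 8.84 to 9.01, 10.06 to 10.10 and 10.02 to 10.16 in MEF HNGMT, in the same order, and 8.48 to 8.63, 8.68 to 9.50 and 9.10 to 9.26 in CFs. Within each setting, Cdkn2c was low where the division level was low, replicate 3 of CF HNGMT+SB included, which had 9.05 for Cdkn2c and 8.68 for the division genes. Between MEF settings it went the other way under DMSO and SB, but not under TGFβ1. With HNGMT over 0TF, Cdkn2c was lower under DMSO (-0.24, adjusted p = 0.00332 in limma) and SB (-0.23, adjusted p = 0.00441). The mean division level was higher there, at 10.10 against 9.94 with DMSO and 10.08 against 9.91 with SB. Under TGFβ1 both were lower with HNGMT. Cdkn2c differed by -0.27 (adjusted p = 0.0012 in limma), and the mean division level was 8.94 against 9.22. Cdkn2b and Cdkn2a were at their highest in the TGFβ1 cultures of each setting. Cdkn1c was low in only 1 of the 3 TGFβ1 groups with a low division level. No correlation is given over the cultures, since they form separate groups.

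**Figure D5:**
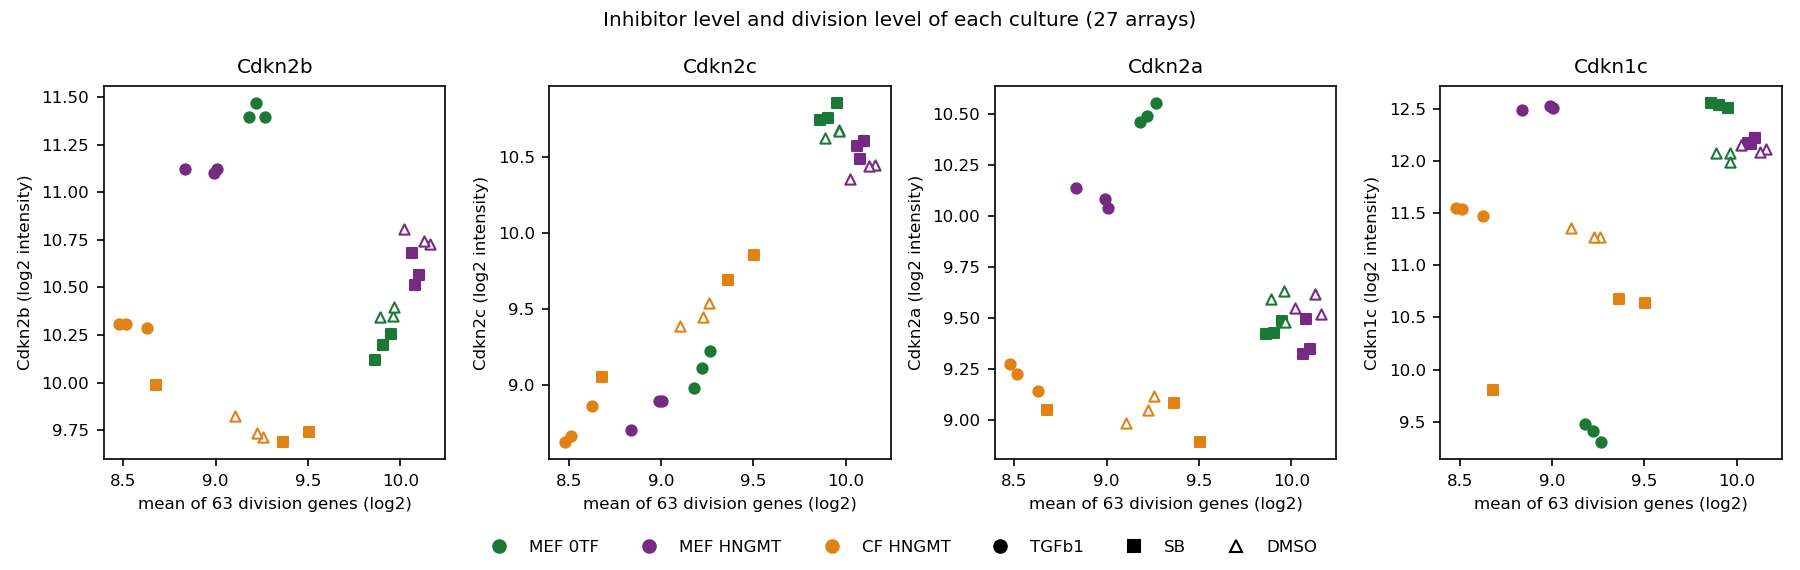
Log2 intensity of Cdkn2b, Cdkn2c, Cdkn2a and Cdkn1c against the mean log2 intensity of 63 division genes, 1 point per culture (27 arrays), coloured by setting and shaped by treatment. The TGFβ1 points lie at the left of each setting, at 8.48 to 9.26, with high Cdkn2b and low Cdkn2c, and Cdkn1c is low there only in MEF 0TF.

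The order of the group means shows which neighbours were separate. In MEFs, Cdkn2b ran from 0TF+TGFβ1 at 11.42 and HNGMT+TGFβ1 at 11.12 at the top to 0TF+SB at 10.19 at the bottom, and each of the 6 groups was separate from the next. Cdkn2c, Cdkn1b and Ccnd1 also had 6 groups that did not overlap with their neighbours, with 0TF+SB highest for Cdkn2c at 10.78, 0TF+DMSO highest for Cdkn1b at 11.59, and HNGMT+DMSO highest for Ccnd1 at 13.14. Some of these neighbours did not pass the adjusted p in limma. HNGMT+SB over HNGMT+DMSO was -0.02 for Ccnd1 (adjusted p = 0.867) and 0.08 for Cdkn1b (adjusted p = 0.526). For Cdkn1c, 0TF+SB at 12.54 and HNGMT+TGFβ1 at 12.51 overlapped at the top. For Cdkn2a, the DMSO groups overlapped with each other and the SB groups with each other, while both TGFβ1 groups stood above. For Myc, 0TF+TGFβ1 at 10.99 and 0TF+SB at 10.89 overlapped at the top, and among the HNGMT groups SB overlapped with both TGFβ1 and DMSO, which were apart from each other. Such a full separation was thus seen in 4 of the 9 genes in MEFs, where 2.09% of all genes had it. In CFs, all 3 groups were separate for Cdkn1c and Ccnd1, 2 of 9, where 4.35% of all genes had it. The CF groups of Ccnd3 all overlapped, and for Cdkn1b the SB group, which holds replicate 3, overlapped with both others while TGFβ1 lay below DMSO.

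For the 4 genes whose group means ranged most, the genes with the most similar pattern were found over the 9 group means, each centred on its cell type, among 6342 genes with a range of at least 0.5. As a description, without a test, Cdkn2c was closest to Cenpk, a kinetochore protein, Hmgn2, a nucleosome-binding protein, and Atad5, which unloads PCNA, each with a Pearson correlation of 0.99. Cdkn1c was closest to Dipk1a at 0.98, Jazf1 at 0.97 and Bbs9 at 0.97. Cdkn2b was closest to Tmsb10, Mrpl20 and Ap1s2, and Cdkn2a to Ptprn, Tbc1d9 and Glce, all at 0.99. The points share arrays and treatment groups, and correlations this high among so many genes are selected from the top of the range.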

How the data were processed

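The deposited values are log2 intensities, 1 per probe set and array, a scale taken from the values themselves, which run from 4.22 to 14.64. The submitters' processing notes name MAS5 and the authors' methods also name PartekGS. The background correction and summarization are not given in the sources used here, and array medians agree within a cell type only. Of 35556 probe sets, 21789 carry 1 gene symbol, 1621 several and 12146 none in the platform annotation. The probe set with the highest mean was kept for each of 19938 genes, a choice that bears on 999 genes. MEFs (18 arrays) and CFs (9 arrays) were fitted separately with limma 3.58.1 in R 4.3.3 (lmFit and eBayes on group means), all 27 together only for the difference between CFs and MEFs. There are no counts behind the values, and 3 arrays a group limit the precision. P-values were adjusted by Benjamini-Hochberg over all genes in 12 contrasts. The pipeline was tested on simulated data.

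Named beside the 9 genes are up to 4 called genes of each list and contrast, those with the largest fold changes. The lists were mitosis, replication, G1 kinases and E2F factors, Myc partners, Myc-driven growth, p53, TGFβ targets, the delivered factors, and markers of fibroblasts, endothelium, leukocytes, cardiomyocytes, smooth muscle and adipocytes. The genes and lists were chosen with earlier results of these data known. Figures were drawn with matplotlib 3.10.9, and promoter windows came from RefSeq tables. The alternatives were the fold limit, the arrays in the fit, a filter at the 40th percentile, quantile normalization, the mean of all probe sets, an intensity trend, the replicate number as a block, and each culture left out.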

Additional observations from a re-analysis of the deposited data

Results flagged for a closer look

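The TGFβ1 effect differed between MEFs with HNGMT and with 0TF for 3 genes by the test of the difference itself in limma. The difference was 3.05 for Cdkn1c (adjusted p = 8.39e-16), -0.70 for Cdkn2b (adjusted p = 1.47e-07) and -0.72 for Myc (adjusted p = 6.31e-05), all on the log2 scale. Cdkn1c was higher with TGFβ1 than with DMSO in 3 of 3 HNGMT cultures and lower in 3 of 3 with 0TF.

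The TGFβ1 effect on Cdkn2c was 0.84 less negative on the log2 scale in CFs than in MEFs with HNGMT (adjusted p = 0.00171). Both groups of TGFβ1 cultures lay wholly below their DMSO cultures.

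With SB, Cdkn1c and Ccnd1 lay on opposite sides of DMSO in CFs and MEF HNGMT without overlap, and how many of all genes do so was not counted. Cdkn1c had a log2 fold change of -0.93 in CFs (adjusted p = 0.201 in limma) and 0.07 in MEFs (0.517). Ccnd1 had 0.26 in CFs (0.455) and -0.02 in MEFs (0.867). None passed the adjusted p, and the MEF groups were barely apart. Without SB replicate 3, the CF values were -0.64 (adjusted p = 4e-04) for Cdkn1c and 0.16 (0.0682) for Ccnd1. The difference was not tested, and the SB dose was 5 µM in CFs and 0.5 µM in MEFs. With 3 cultures a group, single cultures were not tested as outliers.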

How the results depend on the processing

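No called value changed sign under any alternative. For the 9 genes, 744 of 747 single-gene values under other settings and 820 of 828 with 1 culture left out kept their side of the thresholds, and for named genes of the lists 2348 of 2376 and 2461 of 2634 did. Among these, 2, 30, 3 and 23 values that did not pass the adjusted p changed sign.

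The count of called genes among the 9 moved mainly with the fold limit. With none, it was 9 for TGFβ1 in MEF 0TF, 6 for TGFβ1 in MEF HNGMT, 4 and 3 for SB in the same cells, 5, 9 and 8 for HNGMT over 0TF with DMSO, TGFβ1 and SB, 7 and 2 for the difference in TGFβ1 and SB effects between the factors, and 3 for that between CFs and MEFs. With the CF limit used in MEFs it was 7 for TGFβ1 in MEF 0TF, 5 for TGFβ1 in MEF HNGMT, 2 and 0 for SB in the same cells, 2, 3 and 4 for HNGMT over 0TF with DMSO, TGFβ1 and SB, 4 and 2 for the difference in TGFβ1 and SB effects between the factors, and 2 for that between CFs and MEFs. Averaging the probe sets gave 1 for HNGMT over 0TF with DMSO, Cdkn1b. For TGFβ1 in CFs the limit of 1.5-fold gave 1, and 1 culture left out gave 1 to 2. For SB in CFs it was 1 with all 27 arrays in 1 fit, Cdkn1c, and 0 to 1 with 1 culture left out. For HNGMT over 0TF with SB it was 0 to 1, since Myc was called without 0TF+SB replicate 2 (-0.59).

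Whether the replicate numbers pair the cultures could not be settled from their deviations. Same-numbered MEF cultures of different groups had correlations of -0.454 to 0.585, with a median of -0.0192 against 0.0124 for other pairs. CF cultures had -0.248 to 0.651, with a median of 0.0878 against -0.0674, from few pairs. In MEFs 7 of 18 arrays and in CFs 5 of 9 correlated best with their own number. With the replicate number as a block, TGFβ1 in CFs had 1 called gene of the 9 and 3 of 34 called mitosis genes, and no other count of the 9 moved.

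The counts of division genes that fell with TGFβ1 in CFs were the least stable. For mitosis genes the count was 34 with only the TGFβ1 and DMSO arrays, 34 with all 27 arrays, 9 without dim genes, 3 at 1.5-fold, and 1 to 34 with 1 culture left out. For replication genes it was 22, 22 and 10 in the first 3 of these, and 1 to 22 with 1 culture left out. The upper ends, 34 and 22, are those without SB replicate 3, which for TGFβ1 was chosen after seeing the data. In MEF 0TF the count of replication genes was 24 with no fold limit and 19 with the CF limit.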

Other observations

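The second, dimmer probe set of Cdkn1b also read lower with TGFβ1 in MEF 0TF, at 7.60 to 7.81 against 8.30 to 8.62 with DMSO, and averaged 7.45 with TGFβ1 and 7.85 with DMSO in MEF HNGMT. In CFs its groups overlapped, at 7.67 to 7.92 with TGFβ1 against 7.79 to 8.19 with DMSO.

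Cardiomyocyte markers differed between HNGMT and 0TF. With HNGMT, 6 of 9 were higher than with 0TF under TGFβ1, 8 under SB and 7 under DMSO. Of all genes 10.3%, 9.85% and 9.08% were called there, in the same order. Within MEF HNGMT, 4 of 9 fell with TGFβ1 and 5 rose with SB, and in CFs 2 fell with TGFβ1. The shares of all genes called in these comparisons were 5.77%, 0.823% and 5.32%. Leukocyte markers were dim, with a mean of 6.73 to 7.61 over all cultures. Csf1r, the receptor of macrophage growth factor, was the only one of 9 to pass with TGFβ1, and rose by a log2 fold change of 0.97 in MEF HNGMT and 1.37 in CFs. Of 6 adipocyte markers, 3 fell with TGFβ1 in MEF HNGMT and 1 in CFs, while 2 and 1 rose with SB.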
